A study of Rattus norvegicus with 36 samples.

Results

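Nucleus accumbens RNA of 3 rats labelled Vulnerable was compared with that of 3 rats labelled Non Vulnerable, 6 of the 9 rats sequenced, chosen by the phenotype label alone. All 6 were Sprague-Dawley rats of 8 weeks that had gone through the same conditioning with cocaine (20 mg/kg, intraperitoneal, 4 injections), so treatment did not separate the groups. The other 3 rats received saline on that schedule and serve here as a reference for level. The series title sets rats that expressed a preference for the drug-paired compartment against rats that did not, and no sample label ties Vulnerable to either. Genes were described where their mean over the 6 rats was at least 1 CPM (counts scaled to a common library total), which 13734 of 31546 gene IDs reached. Of these 13734, 13726 passed the filter on low counts and were tested; they are called well expressed below.

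The nucleus accumbens is the ventral part of the striatum, where dopamine from the midbrain meets glutamatergic input from cortex, amygdala and hippocampus. Most of its neurons are GABAergic projection neurons that carry either the D1 or the D2 dopamine receptor. Cocaine blocks the dopamine transporter, and place conditioning reads whether an animal comes to seek the context in which the drug was given. In bulk tissue, a lower level from fewer cells of a type cannot be told apart from less RNA per cell. The extraction notes mention the caudate putamen beside the accumbens, and the share of dorsal striatum in a sample was not given. The files carry gene IDs without names, and the gene table used here paired 0 of them with a symbol. Gene names, pathways, cell type markers and promoter or protein sequences are therefore not given, the labelled tissue was not checked against markers, and 4 gene IDs stand for the rest.

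Total counts were 47787001 to 64081679 per Vulnerable rat and 42017373 to 50157802 per Non Vulnerable rat, so that 1 CPM stood for 40.4 to 67 counts. Non Vulnerable rat 1 stood apart in its most abundant transcripts. Its 10 most counted genes took 18.2% of its counts and 10.5% to 13.2% in the 8 other rats. All 10 were highest in that rat, and 0 of the 10 differed between the groups in the test used here. Results are given with and without this rat where they rest on it.

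The difference between Vulnerable and Non Vulnerable rats was broad and of modest size. Of the well expressed genes, 4770 (34.8%) differed in level, 2211 higher and 2559 lower in Vulnerable rats (edgeR quasi-likelihood test, adjusted p under 0.05). Over all 16029 genes tested, 31.5% were called, 15.1% as higher and 16.4% as lower. Most of the genes tested were themselves well expressed, so these shares could not lie far apart. Of the 2303 tested genes under 1 CPM, 12.2% were called. Among well expressed genes called higher, the median difference was 1.46-fold, with quartiles of 1.32-fold and 1.72-fold. Among those called lower it was 1.39-fold, with quartiles of 1.28-fold and 1.6-fold. At least 1.5-fold differences were found for 1022 genes higher and 863 lower, 13.7% of well expressed genes against 13.5% of all tested. At least 2-fold differences were found for 267 higher and 268 lower.

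The balance of higher and lower genes moved with the scaling and with the rats fitted. Of well expressed genes called, 46.4% were higher in Vulnerable rats. The share was 57.1% when only the 6 compared rats were fitted (2138 higher, 1608 lower). When the rats were scaled to equal totals without TMM, an alternative added after seeing the data, it was 77.9% (3036 higher, 861 lower). That scaling moved the median log2 fold change of well expressed genes from -0.05 to 0.07. At 1.5-fold or more, the share called higher was 54.2%, against 65% with the 6 rats alone and 81.7% with equal totals.

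The weight of the 2 directions changed with expression level. From 1 to 5 CPM, 279 genes were called higher and 186 lower in Vulnerable rats, of 2344. From 10 to 50 CPM, the class with most genes, 1039 were called higher and 1020 lower, of 5376. From 100 to 500 CPM the counts were 286 and 533, of 2044, and at 500 CPM or more they were 16 and 52, of 196. The share called higher thus stood at 60% in the weakest of these classes and at 23.5% in the strongest. Between them it did not fall steadily, with 42.3% at 5 to 10 CPM, 50.5% at 10 to 50 CPM, 43.9% at 50 to 100 CPM and 34.9% at 100 to 500 CPM. In all 15 alternatives that refitted the model, the class at 500 CPM or more had the lowest share called higher of the 6 classes. That share stayed under 50% in 14 of them, the exception being equal totals without TMM, with 52.9%. Without Non Vulnerable rat 1 it was 36.2%, with 34 genes higher and 60 lower, and without Vulnerable rat 1 it was 40.4%. The excess of lower genes at 100 to 500 CPM was less stable. Without Vulnerable rat 1 that class had 386 genes higher and 258 lower (59.9% higher), and with equal totals 71.2% were higher. Without Vulnerable rat 3 its share was 49.7%, and in the remaining refits it ran from 32.7% to 44.3%. The classes at 1 to 5 CPM had shares over 50% in all 15.

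**Figure D1:**
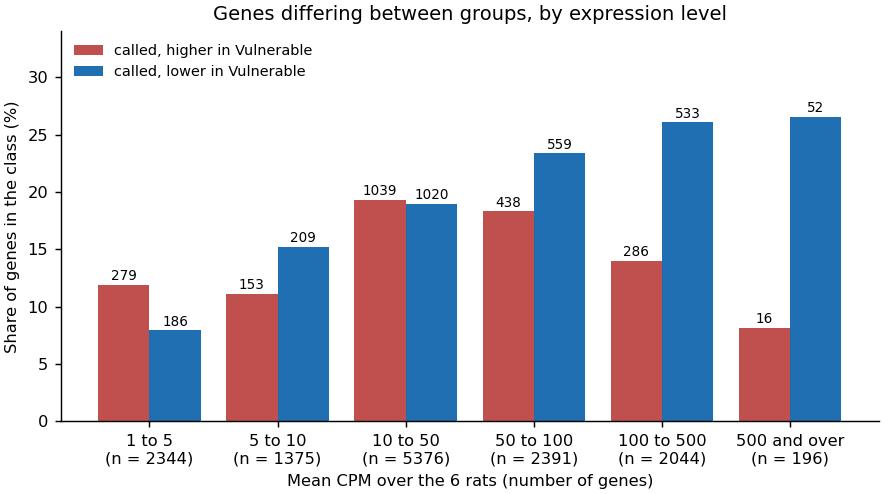
Share of genes called higher (red) or lower (blue) in Vulnerable than in Non Vulnerable rats, in percent of the genes of each class of mean CPM; numbers over the bars count genes. The red bar exceeds the blue one from 1 to 5 CPM (279 against 186 genes), and the blue one is the taller by far at 500 CPM or more (52 against 16 genes).

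Precision depended on level. At 500 CPM or more the median coefficient of variation was 0.936% among technical replicates of a rat and 13% between rats of a group. At 10 to 50 CPM these were 5.34% and 9.06%, and at 1 to 5 CPM 17.8% and 21.6%. The technical value is that of single runs, while rats were compared on sums of 4 runs. The share of genes called went from 19.8% at 1 to 5 CPM to 41.7% at 50 to 100 CPM, and was 34.7% at 500 CPM or more. Of 8956 well expressed genes that were not called, 5283 had a 95% interval of the fold change that lay inside 1.5-fold in either direction. For the other 3673 a difference of 1.5-fold was within the interval, and 1626 of those lay between 1 and 5 CPM. At the 1 CPM threshold itself, the 2 tested genes just inside had means of 1.001 and 1.002 CPM, and the 2 just outside 0.9955 and 0.9993 CPM.

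Weak genes took a large part of the extreme fold changes. Of the 100 called genes with the largest difference in either direction, 53 were well expressed and 11 reached 10 CPM. The largest fall of a called well expressed gene, -8.27 on the log2 scale (SE 2.77, edgeR adjusted p = 0.0492), rested on 1 animal. Its level was 1392 CPM in Non Vulnerable rat 2, 1.39 and 3.14 CPM in the other Non Vulnerable rats, and 0.485, 2.83 and 1.24 CPM in Vulnerable rats. The groups overlapped for that gene, so it fell outside the rule for gene IDs.

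Among called genes of at least 10 CPM whose groups did not overlap, the largest rise belonged to ENSRNOG00000008356. It stood at 81.8, 52.7 and 50.2 CPM in Vulnerable rats 1 to 3 and at 9.14, 21.7 and 21.9 CPM in Non Vulnerable rats 1 to 3. All Vulnerable rats thus lay more than 2-fold above every Non Vulnerable rat. Group means were 61.6 ± 17.5 and 17.6 ± 7.31 CPM (SD, n = 3), and the fitted log2 difference was 1.81 (SE 0.493, edgeR adjusted p = 0.0246). Saline rats spread widely, with 18.5, 72.7 and 49.2 CPM, and reached into both groups. Its call ended without Vulnerable rat 1 (log2 fold change 1.61, edgeR adjusted p = 0.0621), Non Vulnerable rat 2 (1.99, adjusted p = 0.0567) or Non Vulnerable rat 3 (1.99, adjusted p = 0.0509); over all 16 alternatives the adjusted p ran from 0.00501 to 0.0621.

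The most abundant gene that rose at least 1.5-fold was ENSRNOG00000058561. Its levels were 1109, 1376 and 1288 CPM in Vulnerable rats and 665, 790 and 853 CPM in Non Vulnerable rats. The lowest Vulnerable rat was above the highest Non Vulnerable one. The means, 1258 ± 136 and 769 ± 95.4 CPM (SD, n = 3), differed by 0.71 on the log2 scale (SE 0.127, edgeR adjusted p = 0.00512). Saline rats were at 1031, 1131 and 1035 CPM, all above the Non Vulnerable rats, and 1 of the 3 was above Vulnerable rat 1. The call held in all 15 alternatives that refitted the model, with log2 fold changes of 0.63 to 0.84.

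The largest fall by the same rule was that of ENSRNOG00000012995, at 27.1, 19.5 and 40 CPM in Vulnerable rats and 43.7, 186 and 238 CPM in Non Vulnerable rats. Non Vulnerable rats 2 and 3 were far above all others, while Non Vulnerable rat 1 was only just above Vulnerable rat 3 and lay inside the range of the Saline rats, 40.1, 34.5 and 62.6 CPM. The means were 28.9 ± 10.3 and 156 ± 101 CPM (SD, n = 3), a fitted log2 difference of -2.43 (SE 0.56, edgeR adjusted p = 0.0133). Without Vulnerable rat 2 the call ended (-2.22, edgeR adjusted p = 0.0514), and over 16 alternatives the adjusted p ran from 0.000749 to 0.0514.

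ENSRNOG00000046005 was the most abundant gene that fell at least 1.5-fold, and ranked 13 by level among all genes tested. It was at 2720, 2663 and 2944 CPM in Vulnerable rats and 4638, 4809 and 4557 CPM in Non Vulnerable rats. Both groups were tight and far apart, and Saline rats filled the gap with 4132, 3646 and 3173 CPM. Means of 2776 ± 148 and 4668 ± 128 CPM (SD, n = 3) differed by -0.75 on the log2 scale (SE 0.13, edgeR adjusted p = 0.0045). This call, too, held in all 15 alternatives that refitted the model, with log2 fold changes of -0.77 to -0.63.

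**Figure D2:**
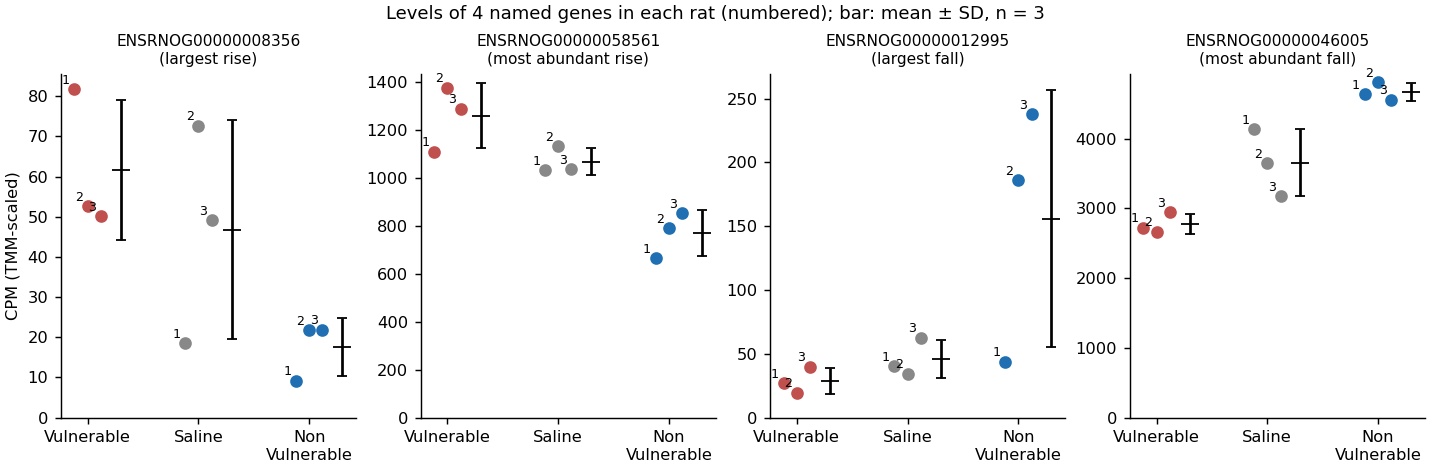
Level in CPM of the 4 gene IDs described, in each of 9 rats (points numbered by rat) with the group mean and SD (n = 3). Vulnerable and Non Vulnerable rats do not overlap for any of the 4, which the rule required of the pair with the largest differences; Non Vulnerable rat 1 lies near the Saline rats for ENSRNOG00000012995 and the Non Vulnerable rats are tight for ENSRNOG00000046005.

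Without Non Vulnerable rat 1, whose most abundant transcripts stood apart, the 4 IDs in the order described had log2 fold changes of 1.52, 0.63, -2.86 and -0.74, and all 4 calls held.

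Against Saline rats, the same 4 IDs differed in both directions. In Non Vulnerable rats the log2 fold changes from Saline, in the order above, were -1.41, -0.47, 1.77 and 0.36, and in Vulnerable rats 0.40, 0.24, -0.66 and -0.40. These comparisons share the Saline rats with each other and the cocaine rats with the comparison above, so they add no separate support. Only the -0.47 of ENSRNOG00000058561 passed the test (edgeR adjusted p = 0.0397). Over well expressed genes, the median absolute log2 fold change was 0.291 between Vulnerable and Non Vulnerable rats, 0.224 between Non Vulnerable and Saline rats and 0.0973 between Vulnerable and Saline rats.

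The levels of Vulnerable and Non Vulnerable rats did not overlap for 6826 well expressed genes (49.7%), 3043 higher and 3783 lower in Vulnerable rats, where 46.7% of all genes tested did not overlap. Among these genes, the Non Vulnerable rat nearest to the Vulnerable group was rat 1 for 48.5%, rat 2 for 23.9% and rat 3 for 27.5%. The Vulnerable rat nearest to the Non Vulnerable group was rat 1 for 41.9%, rat 2 for 20.6% and rat 3 for 37.6%. Over well expressed genes, Non Vulnerable rats had the wider spread, while the fit assumed the same spread in all groups. The median SD of log2 CPM was 0.124 among Vulnerable, 0.148 among Non Vulnerable and 0.118 among Saline rats. Between the 2 cocaine groups, the SD was larger among Non Vulnerable rats for 57.9% of genes.

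Single rats also carried sets of genes of their own. Of all 13726 well expressed genes, 34.8% were called. Genes picked for 1 outlying rat have a wide spread within its group, so the shares called among them carry no result. Vulnerable rat 1 was at least 2-fold above all 5 other cocaine rats for 131 well expressed genes, of which 6 were called, and as far below them for 5. Vulnerable rat 2 was at least 2-fold below all 5 others for 89 genes, of which 25 were called, and above for 2. Non Vulnerable rat 2 was at least 2-fold above for 33 genes, of which 7 were called, and below for 3. Non Vulnerable rat 3 was above for 18 genes and below for 28, with 3 called in each direction. For Non Vulnerable rat 1 there were 5 such genes above and 11 below, and for Vulnerable rat 3 there were 0 above and 1 below.

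The position of each animal was then read on genes called without it. Each of the 6 rats was left out in turn, genes were called on the other 8 rats, and the left-out rat was placed on a log2 scale from 0 at the mean of the opposite group to 1 at the mean of the remaining rats of its own. Vulnerable rats 2 and 3 lay nearer to their own group for 95.4% of 2691 and 96% of 2908 genes. Non Vulnerable rats 2 and 3 did so for 96.2% of 2690 and 93.9% of 2905 genes. Their median positions ran from 0.874 to 1.09. The rats that set both ends of the scale also served to call the genes. The positions therefore cannot show at what size the difference recurs in a left-out rat. Vulnerable rat 1 lay nearer to its own group for 81.9% of 3673 genes, with a median position of 0.832.

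On these genes, Non Vulnerable rat 1 was the exception. It lay nearer to the other Non Vulnerable rats for 60.6% of 5457 genes, with a median position of 0.642 and quartiles of 0.298 and 0.957. For genes higher in Vulnerable rats the share was 72%, and for genes lower in Vulnerable rats 50.1%. With the 10 most counted genes of each rat left out of the scaling the overall share was 60.7%. Genes are not independent of each other, and all rats were scaled together, so these shares are descriptions of animals and carry no test. Over all well expressed genes, called or not, the groups separated less cleanly. The root mean square difference in log2 CPM of Non Vulnerable rat 1 was 0.441 from Vulnerable rat 3. From Non Vulnerable rats 2 and 3 it was 0.459 and 0.558. Vulnerable rat 1 was at 0.48 from Non Vulnerable rat 1, 0.547 from Vulnerable rat 2 and 0.321 from Vulnerable rat 3. The remaining rats were nearer to each rat of their own group than to any of the other.

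**Figure D3:**
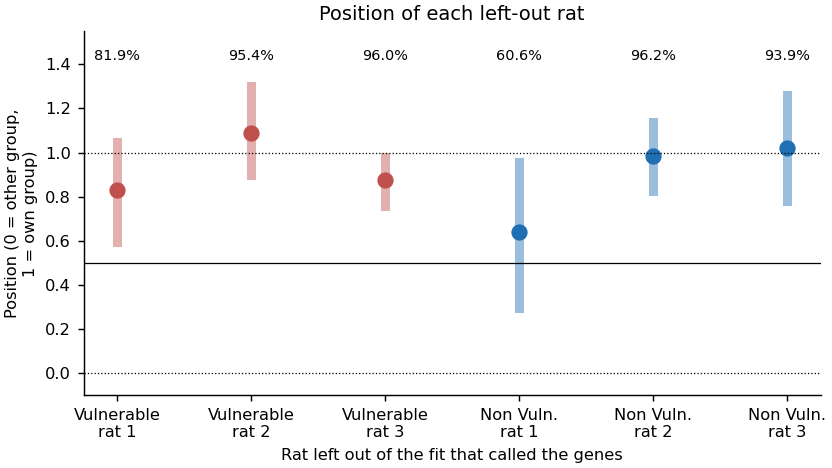
Median position (point) and quartiles (bar) of each rat over genes called without it, from 0 at the mean of the opposite group to 1 at the mean of its own remaining rats; the solid line at 0.5 is the midpoint, and the percentages give the share of genes on the rat's own side. The other rats have medians of 0.832 to 1.09, and Non Vulnerable rat 1 has 0.642 with a lower quartile under the midpoint.

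The rats were also placed against the range of the 3 Saline rats, over the called well expressed genes of at least 1.5-fold. These genes were called on the same animals, so the counts describe the pattern and support nothing. In the edgeR fit, 0 of the 13726 well expressed genes were called between Vulnerable and Saline rats. Between Non Vulnerable and Saline rats 2280 were called. The positions of Vulnerable rats below are thus not differences from Saline that passed the test. For the 1022 genes higher in Vulnerable rats, Non Vulnerable rats 1, 2 and 3 were below all Saline rats for 89.9%, 95.7% and 95.8%. Vulnerable rats were above all Saline rats for 50.6%, 76.8% and 59.3% of them. For the 863 genes lower in Vulnerable rats, Non Vulnerable rats 2 and 3 were above all Saline rats for 90.2% and 88.2%, and Non Vulnerable rat 1 for 52.7%. Vulnerable rats were below all Saline rats for 48.4%, 82.5% and 41.1%. Non Vulnerable rat 1 thus left the Saline range less often for the genes that were lower in Vulnerable rats than for those that were higher; this difference was not tested.

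**Figure D4:**
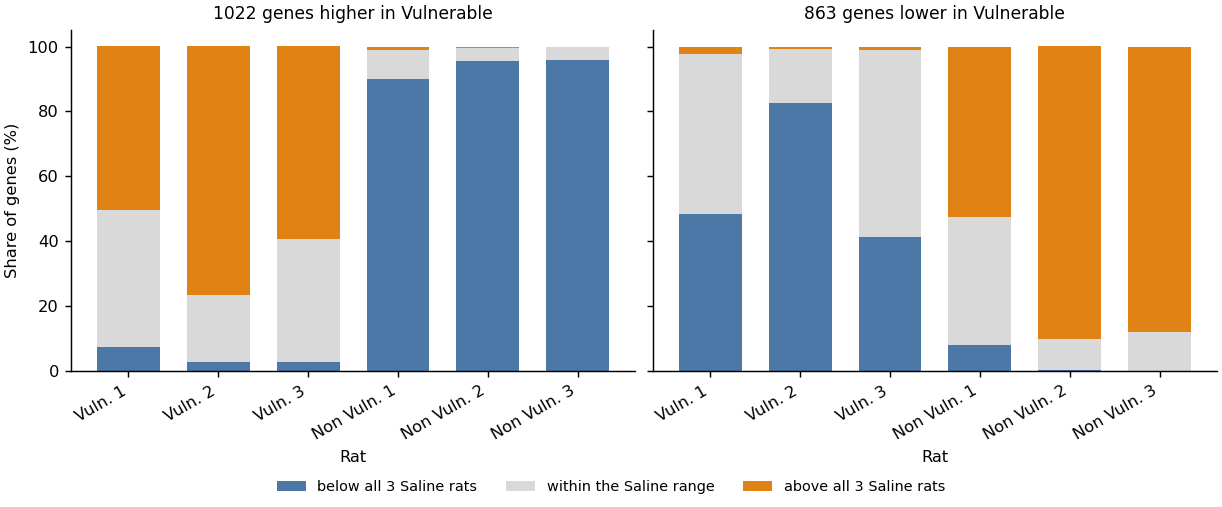
Share of called well expressed genes of at least 1.5-fold for which each rat lay below, within or above the range of the 3 Saline rats, for 1022 genes higher (left) and 863 genes lower (right) in Vulnerable rats. Non Vulnerable rats lie mostly below the range on the left; on the right Non Vulnerable rats 2 and 3 lie mostly above it and Non Vulnerable rat 1 for 52.7% of genes.

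The number of genes called changed when a rat of either group was left out. Each of these fits had 1 rat fewer in a group, and the part of the smaller group in the change was not tested. Of well expressed genes, leaving out Vulnerable rat 1, 2 or 3 left 3673, 2691 or 2908 called. Leaving out rat 2 or 3 of the Non Vulnerable group left 2690 or 2908. Without Non Vulnerable rat 1 the number rose to 5459, with 2619 higher and 2840 lower in Vulnerable rats. Of the 4770 genes called with all rats, 4201 were among those 5459, all in the same direction. Leaving out any of the other 5 rats turned the split towards higher genes. It was 2307 higher and 1366 lower when Vulnerable rat 1 was left out, 1495 and 1196 for Vulnerable rat 2, and 1836 and 1072 for Vulnerable rat 3. For rats 2 and 3 of the Non Vulnerable group it was 1379 and 1311, and 1554 and 1354. At 1.5-fold or more the 1885 genes became 1100 when Vulnerable rat 2 was left out, and 1135 or 1197 when rat 2 or 3 of the Non Vulnerable group was.

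**Figure D5:**
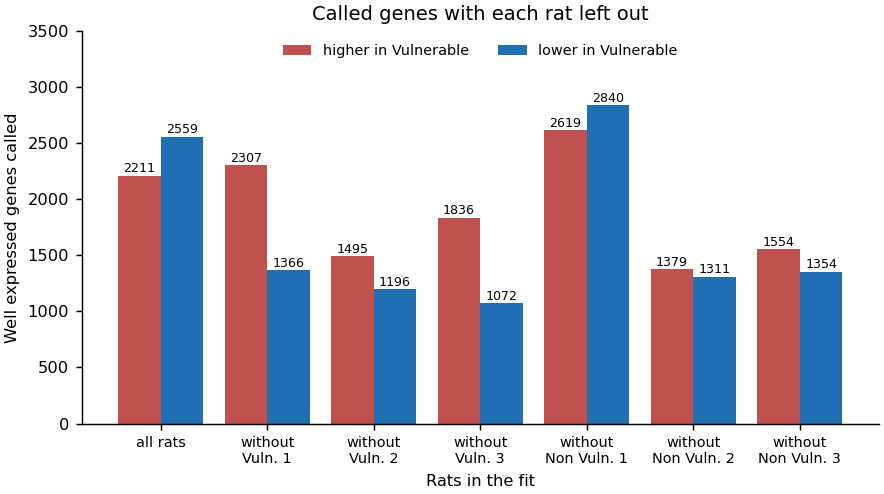
Number of well expressed genes called higher (red) or lower (blue) in Vulnerable rats with all rats in the fit and with each of the 6 rats left out. The lower genes outnumber the higher ones with all rats (2559 against 2211) and without Non Vulnerable rat 1 (2840 against 2619); the order is the opposite without each of the other 5 rats.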

How the data were processed

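PolyA-selected RNA was sequenced with a strand-specific kit, with 4 technical replicates for each of 9 rats, per the labels' protocols. The authors deposited raw read counts per Ensembl gene ID; bcl2fastq 2.17.1.14, STAR and HTSeq 0.5.3 are named, per the submitters' processing notes. Genome build, gene models and strand option of the counter were not given in the sources used here. How reads shared by antisense, overlapping or near-copy genes were assigned is therefore unknown. Rats numbered within a group by the labels were treated as different animals. Technical replicates were summed, which gave n = 3 per group.

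Counts were filtered with filterByExpr, scaled with TMM and fitted with edgeR 4.0.16 (R 4.3.3, glmQLFit, robust) over all 9 rats with 1 coefficient per group, 6 residual degrees of freedom and 8.94 to 9.05 in total. The fit assumes the same spread in all groups. P-values were Benjamini-Hochberg adjusted over all 16029 genes tested, with a gene called under 0.05. CPM use TMM-scaled library sizes, log2 CPM a prior count of 2, and standard errors and 95% intervals come from the F statistic. DESeq2 1.42.0 and limma 3.58.1 (voom) were alternatives.

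The comparison, its threshold and 41 gene lists were chosen with earlier results of these data known. No member of the lists could be matched to an ID, so the planned list counts were not made. Gene IDs printed are the called gene of largest rise and of largest fall with a mean of at least 10 CPM and groups that do not overlap, and the most abundant called gene of at least 1.5-fold in each direction; longer name lists planned under the same rule need symbols. The reading of left-out rats, the placing against Saline rats and the scaling to equal totals were added after seeing the data. Groups of 3 are too small for the search for outlying samples.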

Additional observations from a re-analysis of the deposited data

How the results depend on the processing

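Over 16 alternatives, 37 of 48 counts of called genes stayed within 1.5 times the reported value, and the other 11 all came from leaving out a rat. Of the 16, 1 only raised the level threshold to 5 CPM and kept the reported fit, so it could not change the call of any single gene. With each rat left out, genes called ranged from 2798 to 5841 (5050 with all rats), well expressed genes called from 2690 to 5459 (4770), and those of at least 1.5-fold from 1100 to 2501 (1885). No gene called both in the reported fit and in an alternative changed direction. The alternatives reuse the same rats, so a change of direction was unlikely from the start. DESeq2 called 5795 well expressed genes, limma voom 4543 and a fit without a filter on low counts 4170. Groups share rat numbers in the labels, and nothing in them ties equal numbers together. Over well expressed genes, deviations from the group mean of same-numbered Vulnerable and Non Vulnerable rats correlated at 0.185, -0.163 and 0.189, and rats 2 and 3 of the Vulnerable group correlated better with another number. With the rat number as a replicate block, 4912 well expressed genes were called, 4409 of them shared. The median SE of a log2 fold change was 0.263 at 1 to 5 CPM and 0.106 at 10 to 50 CPM; the part of depth in this was not tested.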
